A study of Mus musculus with 2 samples.

Results

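Msx1, Msx2, Dlx1, Dlx2, Dlx3, Dlx4 and Dlx5 are the 7 genes of the Msx and Dlx homeobox families that are described here, out of 56694 gene rows in the count matrices. They were chosen by symbol, and each symbol matched 1 row. Single-cell RNA was measured in epidermal whole mounts isolated from back skin of mice at postnatal day 2 (P2). The control library is labelled WT, where the study's methods describe controls as floxed littermates without Cre recombinase, and the Gli2EKO library comes from K14Cre tg;Gli2 fl/fl mice, both on a C57BL/6N background. K14Cre acts in basal keratinocytes and their progeny, so dermal cells are not its target. There is 1 library per genotype, and the number of animals behind each library is not given in the sources used here. Genotype, animal and library therefore cannot be told apart. All intervals below are 95% intervals that cover counting error only, and no test between genotypes was possible.

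Msx and Dlx proteins are transcription factors with a homeodomain, a DNA-binding fold of 3 helices of which the last, the recognition helix, lies in the major groove of DNA. In skin appendages, Msx genes are known as responders to bone morphogenetic protein (BMP) signalling, and Msx2 is needed for normal hair shaft differentiation. Dlx3 is known to be required for formation of the hair shaft and inner root sheath and for terminal differentiation of the epidermis. The Dlx genes lie in the mouse genome as linked pairs, and paired genes often share enhancers.

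The annotation of GRCm39 matched 7 of 7 genes by identifier. Msx1 (ENSMUSG00000048450.11) lies at chr5:37977829-37981928 on the minus strand and Msx2 (ENSMUSG00000021469.10) at chr13:53620914-53627110 on the minus strand. Dlx1 (ENSMUSG00000041911.4; chr2:71358457-71364325, plus strand) faces Dlx2 (ENSMUSG00000023391.9; chr2:71373752-71377102, minus strand) across 9426 bases. Dlx3 (ENSMUSG00000001510.9; chr11:95010937-95016122, plus strand) faces Dlx4 (ENSMUSG00000020871.9; chr11:95031273-95037089, minus strand) across 15150 bases. Dlx5 (ENSMUSG00000029755.11; chr6:6877804-6882092, minus strand) is paired in the same way with Dlx6, at a distance of 9235 bases. Each of the 3 pairs is convergent, so that the 3′ ends, which the assay reads, point towards each other. The long non-coding RNA Dlx1as overlaps Dlx1, and Dlx4os overlaps Dlx4, both on the opposite strand.

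The stretch of coding sequence that specifies homeodomain positions 42 to 58, which hold the recognition helix, is shown for 6 members. It encodes a DNA-binding part that all members carry. Capitals mark bases that differ from the most frequent base of the 7 genes at that place (the alphabetically first where bases tied), and each sequence is in coding orientation from the GENCODE transcripts:
Msx2: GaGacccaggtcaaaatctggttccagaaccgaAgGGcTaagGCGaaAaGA
Dlx1: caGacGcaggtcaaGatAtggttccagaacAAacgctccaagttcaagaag
Dlx2: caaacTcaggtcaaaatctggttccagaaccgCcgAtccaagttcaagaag
Dlx3: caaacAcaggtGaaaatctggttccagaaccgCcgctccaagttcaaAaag
Dlx4: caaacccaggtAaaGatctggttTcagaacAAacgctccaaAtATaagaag
Dlx5: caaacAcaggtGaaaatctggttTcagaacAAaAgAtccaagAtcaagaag
In Msx2 the 51 bases lie within exon 2, at chr13:53622412-53622462. In all 5 Dlx genes an intron splits the stretch after its first 9 bases, with the other 42 bases in exon 3. Over the whole homeobox of 180 bases, Dlx genes shared between 67.2% and 81.7% with each other. Msx2 shared less with them, between 54.4% (Dlx4) and 64.4% (Dlx2). The closest Dlx sequences were Dlx2 and Dlx3, which belong to different linked pairs.

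The matrices held 71021773 UMIs in control and 48866478 in Gli2EKO. After filters and doublet removal 4456 control and 3093 Gli2EKO cells remained, with medians of 11806 and 11909 UMIs, and no barcode was shared. Keratinocytes made up 5626 of these cells. They fell into 12 classes named from marker genes and 2 unnamed clusters. The classes are written as "-like" since they rest on rebuilt clusters. The members themselves were kept out of the genes used for clustering. Gli2 read counts do not check the genotype labels, since the assay reads 3′ ends and the position of the floxed part was not given in the sources used here; keratinocytes had 83.6 CPM of Gli2 in control and 85.1 CPM in Gli2EKO, where CPM is the count of UMIs of a gene scaled to 1e6 UMIs of the class.

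Of the 7 genes, 6 were highest in the growing part of the follicle. Among classes, Dlx5 was highest in the one named granular interfollicular epidermis (IFE)-like, but not beyond counting error above the spinous IFE-like class. The matrix-like class, the progenitors at the base of the hair bulb, was defined by Shh, Myb, Edar, Cldn10, Hoxc13, Lef1 and Wnt10b. The inner root sheath (IRS)-like class was defined by Krt71 and its partner keratins, the hair shaft-like class by Krt35 and S100a3, and the follicle lineage-like class by Foxq1, Krt75, Gpnmb and others. Together these 4 classes held 22.8% of keratinocytes but 89.7% of keratinocyte UMIs of Msx1, 84.4% of Msx2, 69.7% of Dlx1, 73.0% of Dlx2, 78.2% of Dlx3 and 77.7% of Dlx4. For Dlx5 they held 37.8% in control and 17.1% in Gli2EKO, where they were 27.6% and 15.9% of keratinocytes. Among the 12055 genes with at least 200 UMIs, 46.4% had their highest level in 1 of these 4 classes, and 9.95% in the matrix-like class. These levels are a description of classes that were named from other genes of the same cells, with no test.

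**Figure D1:**
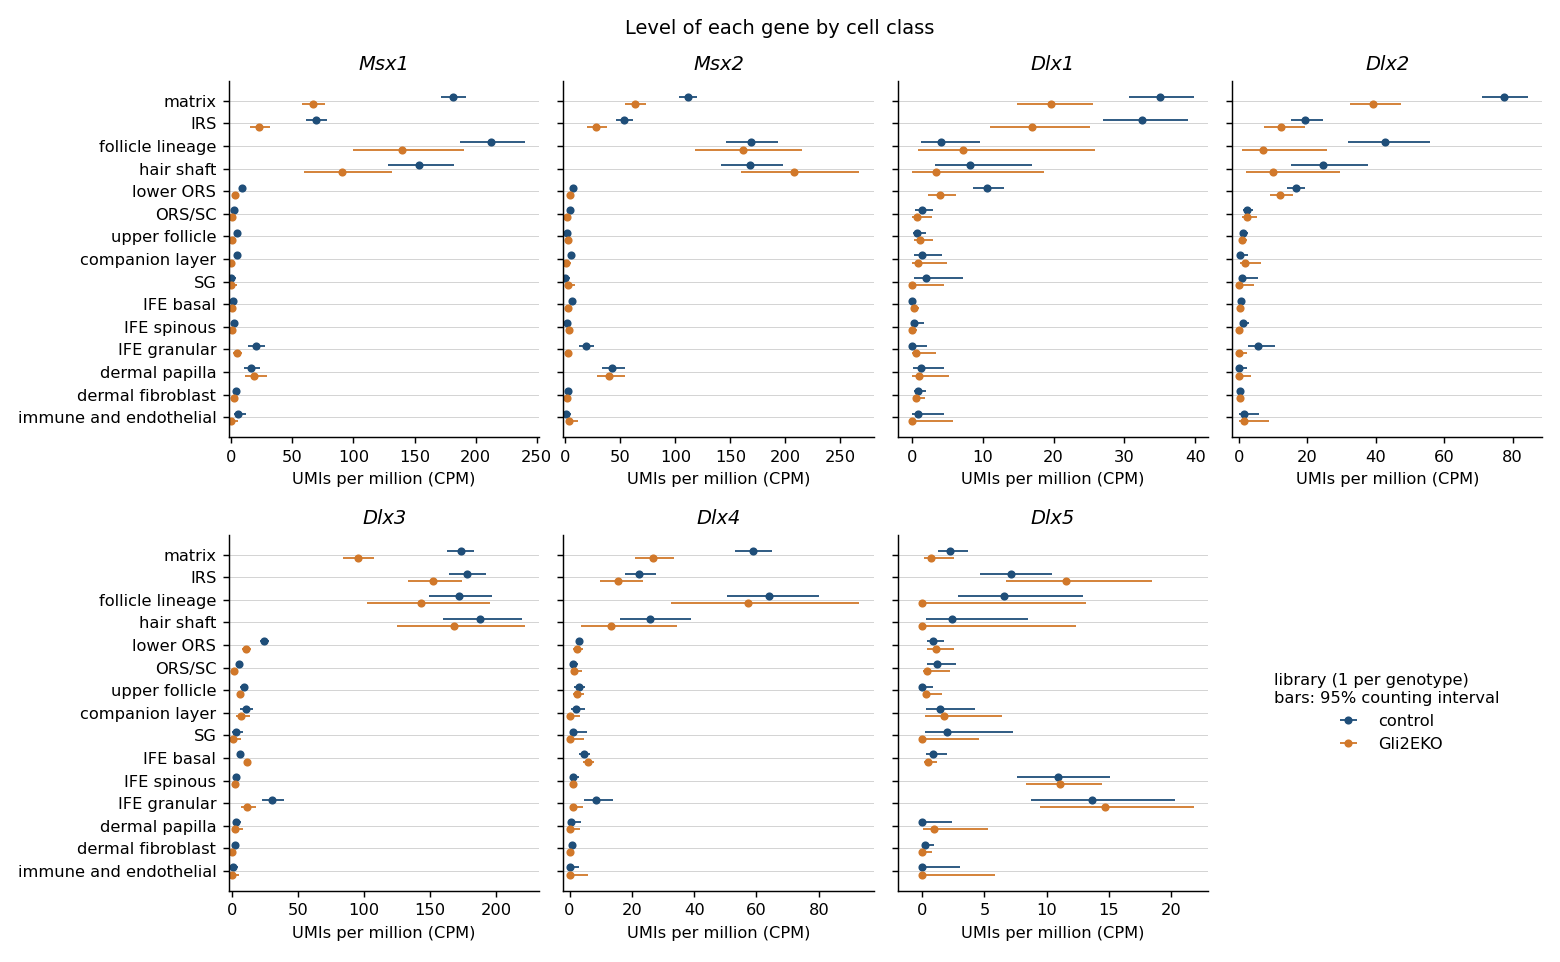
Level of each gene in 14 cell classes and in the combined immune and endothelial cells, in CPM (linear axes that differ between genes), with points for the control and Gli2EKO libraries and bars for the 95% counting interval. Msx1 lies between 69.1 and 213 CPM in the matrix, IRS, follicle lineage and hair shaft classes of control, and Dlx5 stays under 20 CPM in every class.

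Msx1, a transcriptional repressor known from tooth, limb and craniofacial development, reached 213 CPM in control follicle lineage-like cells (interval 188 to 240), 182 CPM in matrix-like cells (172 to 192), 154 CPM in hair shaft-like cells and 69.1 CPM in IRS-like cells. Outside the follicle bulb its level was 9.06 CPM in lower outer root sheath (ORS)-like cells and 1.68 CPM in basal IFE-like cells. Follicle lineage and matrix differed beyond counting error, whereas matrix and hair shaft did not. Of the 259 follicle lineage UMIs in control, 56 came from 3 of 115 cells and 21 from 1 cell. Whether this order holds without those cells was not tested. The Gli2EKO library kept follicle lineage first, at 140 CPM, followed by hair shaft at 90.7 CPM, matrix at 66.8 CPM and IRS at 22.5 CPM. In Gli2EKO follicle lineage and hair shaft did not differ beyond counting error, nor did hair shaft and matrix.

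Msx2, the close relative of Msx1, stood in control at 168 CPM in both follicle lineage-like and hair shaft-like cells, 111 CPM in matrix-like cells and 53.3 CPM in IRS-like cells. Its hair shaft level was above its matrix level beyond counting error. In Gli2EKO it stood at 208 CPM in hair shaft-like, 161 CPM in follicle lineage-like, 63.3 CPM in matrix-like and 27.9 CPM in IRS-like cells. Msx2 was also the member with the highest level in dermal papilla-like cells, the mesenchyme that the hair bulb encloses, with 42.6 CPM in control and 39.7 CPM in Gli2EKO.

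Dlx3 had the flattest profile across the bulb in control. Control levels were 188 CPM in hair shaft-like, 178 CPM in IRS-like, 173 CPM in matrix-like and 172 CPM in follicle lineage-like cells, and no neighbouring classes in this order differed beyond counting error. Its level was 24.6 CPM in lower ORS-like cells of control. In Gli2EKO the bulb profile of Dlx3 was less even. Levels there were 168 CPM in hair shaft-like, 152 CPM in IRS-like, 143 CPM in follicle lineage-like and 95.2 CPM in matrix-like cells. Its linked neighbour Dlx4 was lower throughout, with 64.1 CPM in follicle lineage-like, 58.8 CPM in matrix-like, 25.8 CPM in hair shaft-like and 22.4 CPM in IRS-like cells of control. In control the matrix and hair shaft levels of Dlx4 differed beyond counting error, unlike those of Dlx3. These are levels of 3′ UMIs, which do not grow with transcript length.

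Dlx1 and Dlx2, best known from forebrain interneurons and branchial arches, had their highest levels in the matrix. Dlx2 was highest in matrix-like cells, at 77.5 CPM in control (71.0 to 84.5), beyond counting error above follicle lineage-like cells at 42.7 CPM. Dlx1 stood at 35.0 CPM in matrix-like and 32.5 CPM in IRS-like cells of control, but at 4.11 CPM in follicle lineage-like and 8.22 CPM in hair shaft-like cells. Its matrix and IRS levels did not differ beyond counting error in either library. Dlx1 and Dlx2 both also had signal in lower ORS-like cells of control, at 10.6 CPM for Dlx1 and 16.6 CPM for Dlx2. Over both libraries this class held 17.7% and 18.8% of their keratinocyte UMIs, close to its share of keratinocytes, 17.9%. Higher levels were found in control in the unnamed keratinocyte cluster K12, led by Flrt2, Tagln and Acta2 among others, at 28.3 CPM for Dlx1 and 20.1 CPM for Dlx2. Control Schwann cells stood at 28.6 CPM for Dlx1, from 9 UMIs in 5 of 24 cells, and at 19.0 CPM for Dlx2, from 6 UMIs. The linked genes differed in their order in control, where IRS against follicle lineage was 32.5 against 4.11 CPM for Dlx1 and 19.4 against 42.7 CPM for Dlx2. In Gli2EKO both were higher in IRS, at 17.0 against 7.16 CPM for Dlx1 and 12.2 against 7.16 CPM for Dlx2, with 2 UMIs of each in follicle lineage-like cells.

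Dlx5, a regulator of bone and craniofacial development, was the rarest member with 248 UMIs in all kept cells. In control it stood at 13.7 CPM in granular IFE-like, 10.9 CPM in spinous IFE-like and 7.10 CPM in IRS-like cells. In Gli2EKO these levels were 14.7, 11.1 and 11.6 CPM. Neighbours in the order of these 3 classes did not differ beyond counting error in either library, and the granular class of Gli2EKO held more companion layer than granular marker UMIs, as given with that class. Clusters of the spinous class differed in level. K2.3 stood above the granular class, at 17.3 CPM in control and 20.1 CPM in Gli2EKO, with overlapping intervals. K2.0 and K2.2 stood at 2.85 and 12.1 CPM in control and at 8.12 and 5.88 CPM in Gli2EKO. Spinous and granular IFE-like cells together held 44.4% of keratinocyte UMIs of Dlx5 in control (interval 35.9 to 53.2), where they were 6.50% of keratinocytes, and 71.2% in Gli2EKO (61.8 to 79.4), where they were 13.4%. Its level in matrix-like cells was 2.25 CPM in control, from 15 UMIs, and 0.703 CPM in Gli2EKO, from 2 UMIs.

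**Figure D2:**
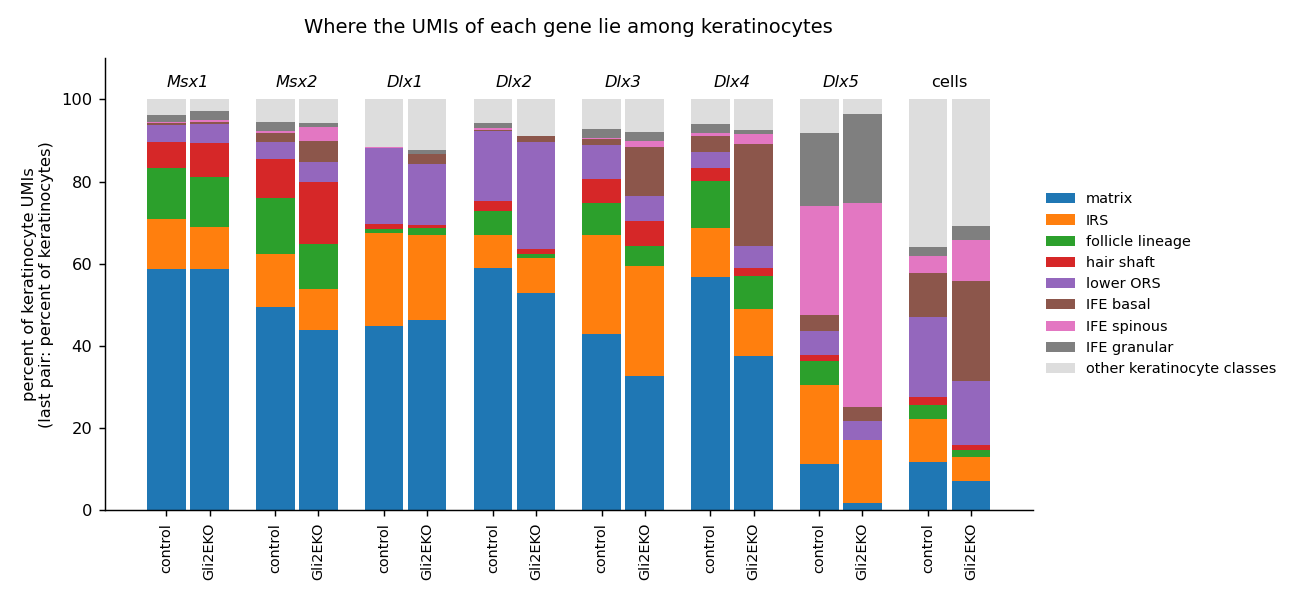
Share of each gene's keratinocyte UMIs in 8 classes (percent, stacked bars, with the other keratinocytes in grey), with control and Gli2EKO side by side, and the share of keratinocytes themselves in the last pair of bars. Matrix-like cells are 11.8% of control keratinocytes and hold 58.7% of Msx1 UMIs there; for Dlx5 the spinous and granular classes together hold 44.4% in control and 71.2% in Gli2EKO.

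The comparison of Gli2EKO with control asks how these genes stand in follicle cells of skin whose epithelium lacks Gli2. In matrix-like cells (391 control and 164 Gli2EKO cells), all 6 members with at least 50 UMIs were lower in Gli2EKO by at least 0.5 on the log2 scale, where 10.6% of 10052 genes were lower by that much. Their median log2 ratio was -0.92, and the median of all genes was -0.07. Dlx5 was under the count minimum.

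Msx1 had the largest difference of the 6 in matrix-like cells, 182 CPM in control against 66.8 CPM in Gli2EKO, a log2 ratio of -1.44 (interval -1.67 to -1.22). Dlx4 followed with 58.8 against 26.7 CPM (-1.14, interval -1.51 to -0.78). Dlx2 stood at 77.5 against 39.4 CPM, which is -0.98 (-1.29 to -0.68). The remaining members lay close together, with Dlx3 at 173 against 95.2 CPM (-0.86, -1.06 to -0.67), Dlx1 at 35.0 against 19.7 CPM (-0.83, -1.28 to -0.41) and Msx2 at 111 against 63.3 CPM (-0.81, -1.06 to -0.58). All 6 intervals lay below 0. The interval of Msx1 did not overlap those of Msx2 and Dlx3, and overlapped those of Dlx1, Dlx2 and Dlx4. With the mean of CPM over cells the Msx1 ratio was -1.11, outside its own counting interval, so its place relative to the other members depends on the measure.

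The markers that named the matrix-like class did not share 1 direction. Myb was lower in Gli2EKO (log2 ratio -0.82), as were Cldn10 (-0.77) and Lef1 (-0.57), whereas Shh (0.34) and Hoxc13 (0.33) were higher and Edar (-0.08) and Wnt10b (-0.01) had intervals that included 0. Summed markers of other cells in the same class stood at 118 CPM in control and 106 CPM in Gli2EKO for 7 fibroblast markers, at 146 and 138 CPM for 6 dermal papilla markers, and at 63.9 and 32.3 CPM for 5 melanocyte markers. Summed IRS markers were 685 CPM in control and 428 CPM in Gli2EKO, and summed spinous IFE markers 196 and 413 CPM. Their part in the difference of the members was not tested.

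In IRS-like cells (343 control and 134 Gli2EKO cells) 5 of 6 members were lower by at least 0.5, against 15.0% of all genes there. Msx1 again differed most, at 69.1 CPM in control and 22.5 CPM in Gli2EKO (log2 ratio -1.62, interval -2.19 to -1.10), ahead of Msx2 at 53.3 and 27.9 CPM (-0.93, -1.46 to -0.44) and Dlx1 at 32.5 and 17.0 CPM (-0.93, -1.62 to -0.30). The Msx1 ratio was -0.83 with a mitochondrial limit of 10% and -0.98 with classes set per cell. Dlx2 (-0.66) and Dlx4 (-0.52) had intervals that included 0, and other settings took them to -0.47 (without integration) and -0.38 (mitochondrial limit of 10%), short of 0.5. Dlx3 was the exception, at 178 CPM in control and 152 CPM in Gli2EKO, a log2 ratio of -0.22. Among markers of the class itself, Krt71 stood at 1877 and 1071 CPM and Krt73 at 465 and 1027 CPM. Summed melanocyte markers in the class were 63.4 and 15.6 CPM and summed spinous IFE markers 742 and 1360 CPM, and their part in these differences was not tested.

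In hair shaft-like cells Msx1 stood at 154 CPM in control and 90.7 CPM in Gli2EKO (log2 ratio -0.76, interval -1.42 to -0.16), but Msx2 at 168 and 208 CPM (0.31, -0.14 to 0.75) and Dlx3 at 188 and 168 CPM (-0.16, -0.65 to 0.31). That made 1 of 3 members lower by at least 0.5, where 13.5% of genes were. The Msx1 call was lost, by a small margin, without doublet removal (-0.50, -1.16 to 0.11) and also with classes set per cell (-0.34, -0.86 to 0.15). Of its UMIs, 50 of 131 in control and 17 of 27 in Gli2EKO came from 3 cells, and 32 from 1 control cell. Without those 3 cells of each library the ratio was -1.41 (-2.53 to -0.46). This removal took a larger share of the Gli2EKO than of the control cells and Msx1 UMIs, which lowers the ratio by itself. The class had 69 control and 28 Gli2EKO cells, and its marker S100a3 stood at 2440.0 CPM in control and 14448 CPM in Gli2EKO. In follicle lineage-like cells (115 and 39 cells) 2 of 5 members were lower by at least 0.5, against 14.9% of genes. They were Msx1, with 213 and 140 CPM (-0.61, -1.13 to -0.12), and Dlx2, with 42.7 and 7.16 CPM from 52 and 2 UMIs (-2.58, -5.66 to -0.65). Msx2 (168 and 161 CPM), Dlx3 (172 and 143 CPM) and Dlx4 (64.1 and 57.3 CPM) had intervals that included 0, and the class marker Foxq1 stood at 416 and 175 CPM. The Msx1 ratio was short of 0.5 without doublet removal (-0.21, -0.80 to 0.35), with the automatic doublet threshold (-0.40), at resolution 0.8 (-0.41) and with a mitochondrial limit of 10% (-0.49), all with intervals that included 0. Summed dermal papilla markers in this class were 112 CPM in control and 247 CPM in Gli2EKO, summed spinous IFE markers 225 and 455 CPM, and median depths 9873 and 6325 UMIs. Their part in the differences was not tested.

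**Figure D3:**
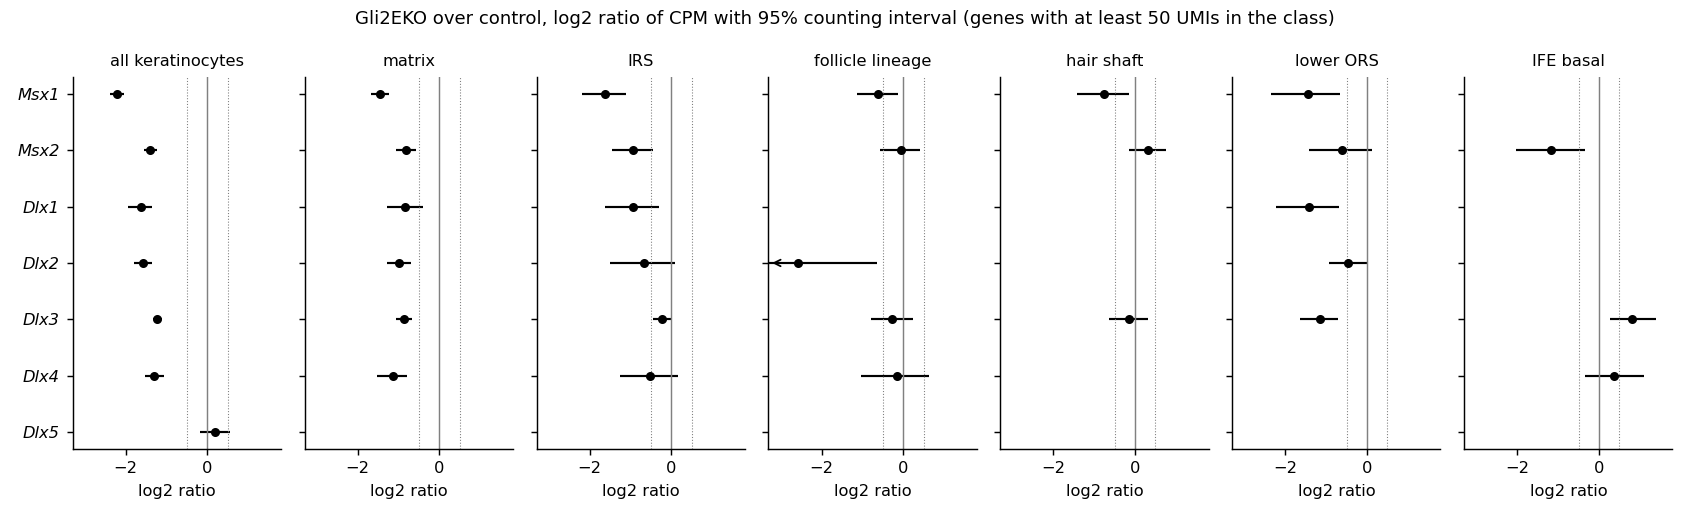
Log2 ratio of CPM, Gli2EKO over control, for members with at least 50 UMIs in all keratinocytes and in 6 classes, with 95% counting intervals, the solid line at 0 and the dotted lines at -0.5 and 0.5; the arrow marks an interval that runs past the axis. In the matrix panel all 6 intervals lie below 0, from -1.44 for Msx1 to -0.81 for Msx2, while Msx2 and Dlx3 straddle 0 in the hair shaft panel.

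In lower ORS-like cells 4 of 5 members were lower by at least 0.5, against 7.23% of genes. Msx1 stood at 9.06 and 3.30 CPM (log2 ratio -1.46, interval -2.36 to -0.65), Dlx1 at 10.6 and 3.96 CPM (-1.42, -2.24 to -0.69), Dlx3 at 24.6 and 11.0 CPM (-1.16, -1.64 to -0.72) and Msx2 at 6.74 and 4.40 CPM (-0.62, -1.42 to 0.13). The Msx2 call was lost without integration (-0.18), at resolution 0.3 (-0.49) and with a mitochondrial limit of 10% (-0.47). Dlx2 stood at 16.6 and 12.1 CPM (-0.45). The class joins cluster K0, led by Spon1 and Igfbp5 among others, and cluster K5, led by histone and mitosis genes. In K5 Dlx3 stood at 33.3 and 11.1 CPM and Dlx1 at 15.1 and 3.43 CPM. In K0 they stood at 15.0 and 10.8 CPM and at 5.61 and 4.52 CPM, with intervals of the log2 ratio that included 0. The difference between K5 and K0 was not tested.

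In basal IFE-like cells, where members were rare, the directions differed. Of the 3 members with at least 50 UMIs, Msx2 was lower, at 5.55 CPM in control and 2.46 CPM in Gli2EKO (log2 ratio -1.18, interval -2.04 to -0.34; -0.70 with classes set per cell, -1.53 to 0.12), against 6.59% of genes lower by at least 0.5. Dlx3 was higher, at 6.56 and 11.6 CPM from 39 and 99 UMIs (0.82, 0.27 to 1.39), against 5.16% of genes higher by that much. Dlx4 stood at 4.54 and 5.85 CPM (0.36, -0.34 to 1.10). Elsewhere in the epithelium, Dlx3 in upper follicle-like cells stood at 9.15 and 6.33 CPM (-0.53, -1.35 to 0.25), 1 of 1 member lower against 11.3% of genes, and Dlx5 in spinous IFE-like cells had a ratio of 0.03 (-0.60 to 0.68). The basal Dlx3 difference depended on how doublets were handled: it was 0.14 without doublet removal (-0.48 to 0.78) and 0.26 with the automatic doublet threshold (-0.20 to 0.73).

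Granular IFE-like cells were not comparable between libraries. Their 7 defining markers, among them Lor and Flg, summed to 37767 CPM in control and 4294 CPM in Gli2EKO, hair shaft markers to 540 and 35.0 CPM, and companion layer markers to 17661 and 26021 CPM. The Gli2EKO cells of the class thus held more companion layer than granular marker UMIs, and the name is less secure there. Dlx3, required for epidermal terminal differentiation, stood there at 30.2 CPM in control and 11.7 CPM in Gli2EKO (log2 ratio -1.37, interval -2.21 to -0.59), which made 1 of 1 member lower against 14.2% of genes. Of 35 Msx1 UMIs in the 77 control cells, 22 came from 3 cells. Dlx5 had 24 UMIs in each library and a log2 ratio of 0.11 (-0.77 to 0.99).

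In the keratinocytes as a whole 6 of 7 members were lower by at least 0.5, against 13.2% of 15620 genes. The log2 ratios were -2.20 for Msx1 (44.8 against 9.74 CPM), -1.64 for Dlx1 (11.3 against 3.65 CPM), -1.58 for Dlx2 (19.1 against 6.39 CPM), -1.40 for Msx2 (32.5 against 12.4 CPM), -1.30 for Dlx4 (15.0 against 6.09 CPM) and -1.22 for Dlx3 (58.5 against 25.1 CPM). Dlx5 stood at 2.93 and 3.35 CPM (0.19, interval -0.18 to 0.57). These ratios include the composition of the libraries, since matrix-like cells were 11.8% of control and 7.12% of Gli2EKO keratinocytes. With the Gli2EKO clusters weighted to the control shares the ratios became -1.37 for Msx1, -0.65 for Msx2, -0.90 for Dlx1, -0.88 for Dlx2, -0.57 for Dlx3 and -0.83 for Dlx4.

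Shh, the Hedgehog ligand of the hair bulb, marks part of the matrix. In control, matrix-like cells with a Shh UMI (96 cells) had less Msx1 than those without (295 cells), at 127 against 200 CPM (log2 ratio -0.65, interval -0.87 to -0.43), and less Dlx4, at 40.4 against 64.9 CPM (-0.68, -1.09 to -0.30). Median depths of both groups of cells were alike, at 17117.5 and 17173 UMIs. Gli2EKO cells had the same order for Msx1, at 51.2 against 77.0 CPM (-0.59, -1.06 to -0.13), and for Dlx4, at 18.5 against 32.1 CPM (-0.79, -1.59 to -0.04). Msx2 stood at 122 against 108 CPM in control and Dlx3 at 175 against 172 CPM, with intervals that included 0. The difference between libraries was present on both sides of this division, with log2 ratios for Msx1 of -1.31 in cells with and -1.37 in cells without a Shh UMI, and for Dlx3 of -0.95 and -0.81.

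Single cells were compared after thinning each to 5000 UMIs, which left out 29 control and 7 Gli2EKO matrix-like cells. A Dlx3 UMI was then found in 54.4% of control matrix-like cells (interval 49.1 to 59.6) and 39.5% of Gli2EKO cells (31.8 to 47.6). A Msx1 UMI was found in 44.5% (39.3 to 49.8) and 20.4% (14.4 to 27.5), and a Msx2 UMI in 35.4% and 26.8%. Dlx2 was found in 31.2% and 19.7%, Dlx4 in 22.7% and 12.7%, and Dlx1 in 17.4% and 12.1%. Without thinning, the shares for Dlx3 were 82.4% and 64.6% and for Msx1 61.1% and 43.3%. Immune and endothelial cells were taken as a background for free RNA (median depths before thinning 10619.5 and 8584 UMIs, against 16914 in matrix-like cells). Over both libraries a UMI was found in 1.46% of 137 cells for Msx1, 0.730% for Msx2 and for Dlx3, and in no cell for Dlx1, Dlx2, Dlx4 or Dlx5, which allows up to 2.19% at 3 counts of 137. Both cells with Msx1 were endothelial. Without thinning, Msx1 had 6 UMIs in 6 of 24 control endothelial cells (21.7 CPM) and 1 UMI in 95 control immune cells (1.06 CPM). In immune cells alone, 0 of 111 thinned cells had a Msx1 UMI, which allows up to 2.70%. Spinous IFE-like cells had shares of 0.282% for Msx1 and 1.41% for Dlx3.

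**Figure D4:**
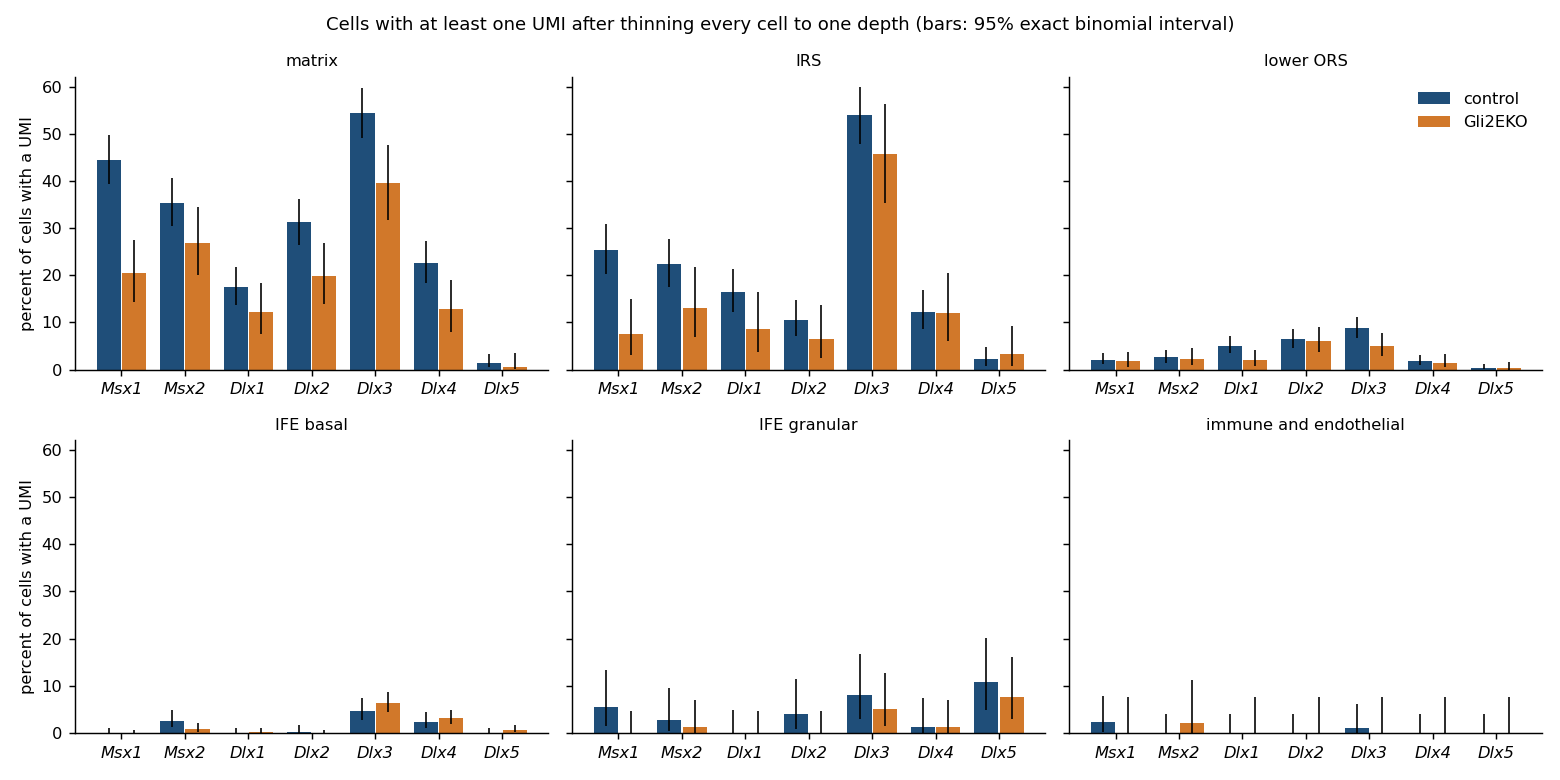
Percent of cells with at least 1 UMI of each gene after thinning every cell to 5000 UMIs, in 5 keratinocyte classes and in immune and endothelial cells, with bars for the control and Gli2EKO libraries and lines for the 95% exact binomial interval. In the matrix panel Dlx3 (54.4% and 39.5%) and Msx1 (44.5% and 20.4%) lead in control, and in immune and endothelial cells no gene passes 2.22%.

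Many matrix-like cells held more than 1 member. At least 1 member was detected in 87.6% of control and 71.3% of Gli2EKO matrix-like cells, at least 2 in 64.1% and 37.6%, and at least 3 in 36.7% and 17.2%. In immune and endothelial cells at least 1 was found in 3.33% and 2.13%. These shares were not set against an expectation from the separate shares, so they do not show that members go together. Msx1 and Msx2 occurred together in 17.1% of control matrix-like cells, against 15.7% as the product of their separate shares. Msx1 and Dlx3 occurred together in 28.7% (product 24.2%), Dlx1 and Dlx2 in 7.18% (product 5.43%) and Dlx3 and Dlx4 in 13.5% (product 12.3%). UMIs were spread unevenly, since the 3 control matrix-like cells with most Msx1 held 74 of its 1213 UMIs and 1 cell had 28.

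Outside the epithelium, Msx genes were present in mesenchyme at low level. The dermal papilla-like class combined cluster N4, led by Corin and Prokr2 among others, and cluster N6, led by Rspo2 and Crabp1 among others. Msx2 stood at 44.9 CPM in N4 and 41.2 CPM in N6 of control, and at 38.3 and 42.01 CPM in Gli2EKO; over the class the log2 ratio was -0.10 (interval -0.69 to 0.48), making 0 of 1 member lower by at least 0.5, where 8.67% of genes were. Msx1 stood at 15.9 and 18.9 CPM in the class, from 25 and 20 UMIs. The Dlx genes had at most 5 UMIs per library there. In mural cells Msx1 had 10 UMIs in 7 of 26 control cells, and in Schwann cells all 12 Msx2 UMIs came from 1 of 24 control cells.

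Across the 23 classes with at least 20 cells, Pearson's r on a log scale ranged from 0.53 (Msx1 and Dlx1) to 0.93 (Dlx3 and Dlx4) among the members other than Dlx5. It was 0.91 for Msx1 and Msx2 and 0.83 for Dlx1 and Dlx2, but 0.60 for Dlx1 and Dlx4 and 0.61 for Msx2 and Dlx1, while Dlx5 had r between 0.08 and 0.31 with the others. Classes share libraries and depth, so these values describe and are given without a test. The most similar gene to Dlx4 among 9099 genes was its antisense neighbour Dlx4os (r 0.95), and to Dlx1 it was Gm16599 (0.91). Msx2 was close to Lef1 (0.90) and to Aldh1a3 (0.90), and Dlx3 to Hoxc13 (0.89), a homeobox regulator of hair keratins. Lef1 and Hoxc13 were also markers of the matrix-like class. Dlx2 was close to Mycn (0.87) and Etv4 (0.82). For Dlx5 the closest genes were Rbp2 (0.90), Fads2b (0.89), Clic3 (0.87), Dsc1 (0.86), which encodes a desmosomal cadherin of the upper epidermis, and Pla2g4f (0.85).

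Other genes of the 2 families were nearly absent, with 1 UMI of Dlx6, none of Msx3 and 4 of Dlx6os1 in all kept cells. Dlx1as, transcribed from the strand opposite to Dlx1, had 274 UMIs. In matrix-like cells it stood at 17.2 CPM in control and 3.87 CPM in Gli2EKO (log2 ratio -2.15, interval -3.20 to -1.26), the same direction as Dlx1.

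Of 11 BMP pathway genes, 3 were lower by at least 0.5 in Gli2EKO matrix-like cells, against 10.6% of all genes there, and none was higher, with a median log2 ratio of -0.25 against -0.07 for all genes. They were Bambi, a pseudoreceptor that dampens BMP signals (46.0 against 21.1 CPM, -1.12, interval -1.55 to -0.72), the inhibitory Smad6 (29.0 against 18.3 CPM, -0.67, -1.14 to -0.22) and Id1, a direct BMP target (156 against 102 CPM, -0.62, -0.81 to -0.43). Id2, Id3, Id4 and Smad7 of the same list were not lower by that much. Of the ligands, Bmp4 stood at 64.2 against 55.5 CPM (-0.21, -0.48 to 0.06), Bmp2 at 60.9 against 70.6 CPM (0.21, -0.04 to 0.46) and Bmp7 at 62.4 against 85.8 CPM (0.46, 0.22 to 0.69). The receptor Bmpr1a was at -0.25. Of 6 measured regulators of follicle and epidermis, Lef1 was the 1 gene lower by at least 0.5, against the same 10.6% (479 against 322 CPM, -0.57), and Hoxc13 stood at 86.8 against 109 CPM (0.33); the median of the list was 0.13.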

How the data were processed

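A control and a Gli2EKO library of P2 back skin were available, with the genotype of each taken from the submitters' label. For the 10x 3′ v4 reads the authors used Cell Ranger 9.0.1 with GRCm39 and deposited raw UMI counts, that is, unnormalised integers. CPM, percent and log2 values given here were computed from these deposited counts. Barcodes were kept if they had more than 1000 but fewer than 8000 genes and less than 15% of UMIs from mitochondrial genes, which are the limits the study names. Doublets, for which the study used scDblFinder, were taken as the 8% of each library with the highest Scrublet score (scanpy 1.11.5), because the automatic Scrublet threshold marked 261 control but 5 Gli2EKO cells.

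Clustering used Seurat 5.3.0 (R 4.3.3), 2000 variable genes without the members, 20 components, a rewritten Harmony integration and resolution 0.5, with all cells first and then keratinocytes and other cells apart. Mixed clusters were split at resolution 0.3. A cluster took the name of the marker list with the highest mean log2 score, if that was at least 0.7 and 3 markers were found in 10% of its cells. The score limit and the rule for setting cells aside were chosen with the values in view. The members and the gene lists were chosen with earlier results of these data known.

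UMIs were summed by class and library. Intervals at 95% were exact Poisson for CPM, exact conditional binomial for log2 ratios (Gli2EKO over control) and Clopper-Pearson for shares. The code for CPM and log2 ratios was tested on simulated Poisson counts, which lack the uneven spread of UMIs over cells. With 1 library per genotype no p-value is given. Differences were counted from 0.5 on the log2 scale in genes with at least 50 UMIs. The genes named are the members in every class, the family, BMP and regulator lists, marker genes, and the 5 genes most correlated with each member over classes (10 CPM added, at least 50 CPM in 1 class). Leading genes of clusters were named after their values were seen. Positions and sequences are those of GENCODE vM39. The sequence of 1 member is not reported here.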

Additional observations from a re-analysis of the deposited data

Results flagged for a closer look

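Dlx3 was higher in Gli2EKO in basal IFE-like cells, with a log2 ratio of 0.82 (interval 0.27 to 1.39), and lower in 3 other keratinocyte classes. The opposite ratios were -0.86 in matrix-like cells (-1.06 to -0.67), -1.16 in lower ORS-like cells (-1.64 to -0.72) and -1.37 in granular IFE-like cells (-2.21 to -0.59). What drew attention was the opposite direction under the same contrast. The difference between classes was not tested, since each genotype has 1 library. The granular class was not comparable between libraries, with its own markers at 37767 CPM in control and 4294 CPM in Gli2EKO. The basal ratio was 0.14 without doublet removal (-0.48 to 0.78) and 0.26 with the automatic doublet threshold (-0.20 to 0.73). By cluster of the basal class, Dlx3 stood at 7.06 CPM in control and 14.8 CPM in Gli2EKO in K11 (1.07, 0.21 to 2.02), at 8.64 and 13.3 CPM in K6 (0.62, -0.18 to 1.47) and at 3.09 and 2.72 CPM in K13 (-0.18, -2.30 to 1.94), from 5 UMIs each. These 3 intervals overlap.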

How the results depend on the processing

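With 1 library per genotype the depth limits counting error only, and the spread between animals is unknown. No paired analysis was possible because each genotype has 1 library without replicate numbers. Of 371 recomputed log2 ratios of members, 365 kept their sign. All of them reuse UMIs of the same libraries. For all keratinocytes and matrix-like cells, 12 ratios left the counting interval of the main setting and 130 stayed within it. For the other classes these numbers were 4 and 225. The number of members lower in matrix-like cells stayed within 1.5 times of 6 under both other count minimums. A count minimum decides which members are counted and does not change their ratios. A lower minimum can add Dlx5 alone to the 6 members, so this count cannot show how stable the differences are. Over all keratinocytes, weighting Gli2EKO clusters to the control shares gave -1.37 for Msx1, -0.65 for Msx2, -0.90 for Dlx1, -0.88 for Dlx2, -0.57 for Dlx3 and -0.83 for Dlx4. The mean of CPM over cells gave -1.84 for Msx1 and -1.12 for Msx2 over all keratinocytes and -1.11 for Msx1 in matrix-like cells. Centring on the median of all genes gave -1.08 for Dlx3 over all keratinocytes. In matrix-like cells, a mitochondrial limit of 10% gave -1.77 for Msx1, and assigning each cell to its own best-scoring class gave -0.53 for Msx2. The cause of these shifts was not tested, beyond the weighting and centring by their construction. In IRS-like cells Msx1 went from -1.62 to -0.83 with the mitochondrial limit and to -0.98 with classes per cell. Dlx3 in basal IFE-like cells went from 0.82 to 0.14 without doublet removal and to 0.26 with the automatic threshold. With 1 instead of 10 CPM added, 1 of the 5 genes most like Msx1 was shared, and with a limit of 10 CPM 2 of 5 for Dlx3 and for Dlx4. Divisions by Shh UMI and the removal of the 3 cells of each library with most UMIs of a gene were added after seeing the data.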
